A study of Mus musculus with 12 samples.

Results

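The genes described here are the collagens, the laminins, the matrix metalloproteases (MMPs), the ADAMTS proteases and the tissue inhibitors of metalloproteases (TIMPs) expressed in the cortex of CD mice, a model of Williams–Beuren syndrome. They were taken by symbol from the protein-coding genes of the table, and no expression value entered the choice. Of 17202 genes, 85 were members: 42 collagens, 11 laminins, 12 MMPs, 17 ADAMTS genes and 3 TIMPs. RNA of 12 male mice was sequenced, 3 in each of 4 groups, which are vehicle-treated wild-type (VEH-WT) and CD (VEH-CD) mice and wild-type (VERCUR-WT) and CD (VERCUR-CD) mice given curcumin with verapamil. The CD mice have a heterozygous deletion that runs from Gtf2i to Fkbp6 and takes in Eln, the elastin gene. They were crossed with Thy1-YFP mice, whose transgene labels pyramidal neurons, and the labels give the strain as C57Bl6. Vehicle was drinking water with DMSO (the labels call these mice untreated), and by the labels VERCUR meant curcumin (60 mg/kg/day), a phenol of turmeric, with verapamil (10 mg/kg/day), a calcium channel blocker, for a month from 8 weeks of age, in mice killed at 16 weeks. These label ages leave a gap between dosing and sampling that the labels do not explain, and the methods of the study give a lower verapamil dose and a younger age at the end. Each library came from 1 mouse, so the tests set a difference against the spread between these mice. Per the study, treatments were given in the drinking water of shared cages, and the cage of each mouse is not among the labels used here. A cage effect thus cannot be told apart from one of treatment.

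Collagens are secreted as trimers of alpha chains, the fibrillar ones into fibers and collagen IV into the sheet of the basement membrane. Laminins are trimers of an alpha, a beta and a gamma chain and form the other network of that membrane, which in the brain lies around vessels and under the meninges. MMPs and ADAMTS proteases cut these and other matrix proteins, among them the proteoglycans of the brain, and TIMPs block the proteases. Collagens of the brain are made mainly by fibroblasts of the meninges and vessel walls and by endothelial and mural cells, which make up a small share of cortical tissue. In bulk RNA, fewer cells of a type and less RNA per cell cannot be told apart.

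For a few chains the gene position itself is part of what is described below, so their start regions are shown. Col4a1 and Col4a2 encode the chains of the most widespread collagen IV trimer and are transcribed away from each other, with first exons that overlap in 22 bases at chr8:11312805-11312826 (GRCm38). This stretch is written from RefSeq on the strand of each gene, with capitals on the only match to GGGCGG (or its reverse, CCGCCC), a GC box.
Col4a1: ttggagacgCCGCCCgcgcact
Col4a2: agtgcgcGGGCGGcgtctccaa
Col4a5 and Col4a6, also collagen IV chains, lie head to head on chromosome X, with starts 1343 bases apart in RefSeq. The bases from 250 to 51 before each start (chrX:141475169-141475368 on the plus strand and chrX:141474127-141474326 on the minus strand) are given with capitals on CCAAT, which is in the first alone.
Col4a5: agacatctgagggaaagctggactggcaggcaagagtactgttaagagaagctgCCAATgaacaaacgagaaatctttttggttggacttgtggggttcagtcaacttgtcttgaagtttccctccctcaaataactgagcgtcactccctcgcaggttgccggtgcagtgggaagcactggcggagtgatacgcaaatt
Col4a6: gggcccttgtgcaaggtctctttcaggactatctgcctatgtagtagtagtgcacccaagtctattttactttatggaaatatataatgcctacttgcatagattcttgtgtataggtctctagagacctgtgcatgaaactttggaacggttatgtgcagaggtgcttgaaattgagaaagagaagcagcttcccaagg
On either strand, CCAAT was found in 37.41% of the 32851 promoters of RefSeq. The TATA box, TATAAA, was found in 13.62% of them. The GC box, GGGCGG, was found in 35.66%. Of the 58 members with a promoter in that set, 19 held CCAAT, 5 the TATA box and 41 the GC box. A member was counted when any of its promoters held the motif, whereas the shares above are of single promoters. The counts and the shares are therefore not alike and were not tested against each other.

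The values are normalized counts, reads counted on a gene divided by 1 factor per mouse. The whole reads behind them were recovered from the step between values, and came to 40287647 to 56480948 per mouse. Libraries of a group correlated at 0.986 to 0.994 on the log2 scale. Cortical glutamatergic neuron markers were present in every mouse and their summed level varied 1.26-fold, whereas markers of striatal neurons varied 4.47-fold (from 7343 to 32831), those of oligodendrocytes 2.93-fold and those of red blood cells 2.05-fold, and where no value is given below their part in a result was not tested. The striatal sum was 13853 to 31635 in the vehicle mice, and 7343 to 8860 in VERCUR-WT 1 and 2 and VERCUR-CD 2 and 3, whereas VERCUR-CD 1 had 24114 and VERCUR-WT 3 had 32831. Some libraries stood out. VEH-WT 2 and VEH-CD 2 had the lowest astrocyte sums (39035 and 39674, against 45282 to 55593 in the other mice). Their endothelial sums were also the lowest (6879 and 7266, against 7345 to 9736). VERCUR-WT 1 had the lowest oligodendrocyte sum (67424, against 103705 to 197295 in the other mice). VERCUR-CD 2 had 23 genes at 0, against 2 to 13 in the others. Across the 83 members tested, the deviation of VERCUR-CD 2 from the mean of the mice correlated with the GC content of the gene (r = -0.64), a correlation over genes, which are not replicates, that ran from -0.21 to 0.40 in the other mice. The median GC content of the members was 54.3%, against 49.7% over the genes tested.

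Summed over the members, each mouse had 57231 to 62956 normalized counts, and a few genes carried most of them. Mmp17, which encodes a GPI-anchored membrane-type MMP, held 25.4% of this total, and Timp2, an inhibitor that also serves in the activation of MMP2, held 19.1%. With Timp3, Mmp24 and Col4a2, these genes came to 58.4%. The MMPs as a family made up 34.0% of the total, the TIMPs 27.9%, the laminins 9.23% and collagen IV 5.76%.

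To compare levels between genes, the normalized counts were divided by exon length, the bases covered by any annotated exon of the gene. They were then scaled to the same total in each mouse, in the manner of TPM. On this length-scaled level, Timp2 (206) and Mmp17 (161) were highest, followed by Timp3 (35.0) and Mmp24 (34.7), which encodes another membrane-type MMP. The highest collagens were Col6a1 (22.7), the alpha chain common to collagen VI trimers, and the collagen IV chains Col4a2 (19.9) and Col4a1 (13.0). Among the laminins, Lamb2 (14.9) and Lamc1 (9.83) led, and among the ADAMTS genes it was Adamts4 (12.9), an aggrecanase. Col25a1, a transmembrane collagen of neurons, reached 9.07. The fibrillar collagens had a median length-scaled level of 0.852 over 11 genes, the highest being Col11a2 (8.46) and Col1a2 (4.30). At the low end, Col4a3 and Adamts12 had mean normalized counts under 10 and were left out of the tests, which took genes with a mean of at least 10. Timp1, another inhibitor, is not analysed here.

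**Figure D1:**
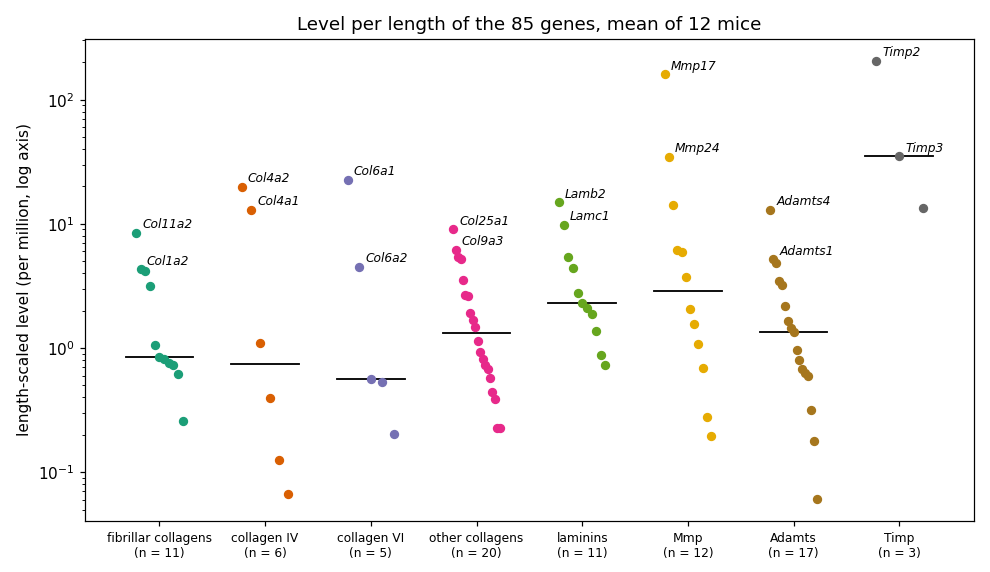
Length-scaled level (log axis) of the 85 genes by family; each point is the mean of 12 mice for 1 gene and each line the median of its family. Timp2 (206) and Mmp17 (161) lie far above the rest, and the medians of the collagen families lie between 0.564 and 1.31.

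Chains of the same trimer were not at the same level in most cases. Col1a1 and Col1a2, the chains of collagen I, were close, with a ratio of length-scaled levels of 1.04 (the second over the first). Col4a2 was at 1.53 times Col4a1, while Col6a2 reached 0.198 and Col6a3 0.0248 of the level of Col6a1. These ratios depend on the exon lengths used, such as 8326 bases for Col6a2 and 4380 for Col6a1, or 12426 for Col1a2 and 6563 for Col1a1. Before division by length, the mean normalized counts were 535 for Col6a2 and 1417 for Col6a1, and 764 for Col1a2 and 387 for Col1a1.

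The mice of a group differed more in these genes than in most others. The median coefficient of variation (CV) within a group was 12.3 to 16.8% over the members and 7.52 to 10.2% over all genes tested. A CV of 20% or more was found in 16 to 31 of the 83 members, the most in VERCUR-WT (37.3%, against 17.4% of all genes). By family, the median CV was lowest in the TIMPs (9.26% over 3 genes) and laminins (10.0% over 11) and highest in the collagen VI chains (20.9% over 5). The median normalized count of the members was 174, against 710.4 over all genes. The part of level in this spread was not tested.

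The first comparison, VEH-CD against VEH-WT, asks which genes the deletion alters. The test was limma on log2(normalized count + 1), and a gene was called when the adjusted p (Benjamini-Hochberg over 17111 genes) was under 0.05 and the level changed by more than 25% either way. No member was called, 0 of 83, where 0.257% of all genes were. At an unadjusted p under 0.05 there were 5 members (6.02%, against 11.8% of all genes), of which 2 were higher and 3 lower in VEH-CD, where 5.07% and 6.73% of all genes were. The median log2 difference of the members was -0.02, with 37 of 83 above 0, and over all genes it was -0.00. limma voom on the recovered reads also called 0 members. In the same comparison 11 of 14 fibroblast markers (median -0.13), all 5 oligodendrocyte (-0.19) and all 3 interneuron markers (-0.20) were below 0. All 5 red blood cell markers (0.36) were above 0, and endothelial markers were mixed, with 3 of 7 above 0 (-0.00). The part of these markers in the members' differences was not tested.

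The member with the smallest p was Mmp19 (ENSMUSG00000025355.7, chr10:128790910-128800824), a secreted MMP that acts on basement membrane proteins. Its normalized counts were 10.1, 9.24 and 7.82 in VEH-WT and 17.1, 17.7 and 20.4 in VEH-CD. All 3 VEH-CD mice were above all VEH-WT mice, and the gene is among the lowest tested. The log2 difference was 0.95 (SE 0.27, adjusted p = 0.198 by limma), and the 95% interval of the fold went from 1.29 to 2.89. VERCUR-WT mice had 13.1, 19.4 and 12.1 and VERCUR-CD mice 11.3, 15.3 and 15.4. All of these were above the VEH-WT mice, and only VERCUR-WT 2 reached the VEH-CD values. Tmem198b, on the other strand, overlaps the bounds of Mmp19, and whether reads were assigned by strand is not given in the sources used here.

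Lamc1 encodes the gamma chain shared by most laminins of the vascular basement membrane (chr1:153218922-153332786). It had 1300.2, 1330.1 and 1217 normalized counts in VEH-WT and 1138, 992 and 1112 in VEH-CD. The groups did not overlap, and the log2 difference was -0.25 (SE 0.09, adjusted p = 0.306 by limma). The treated groups were at 1125 ± 106 in VERCUR-WT and 1163 ± 96.0 in VERCUR-CD (SD, n = 3), and VERCUR-CD overlapped with both vehicle groups. The beta chains were nearer to equal, with log2 differences of 0.03 (SE 0.08) for Lamb2, the most abundant laminin per length, and 0.01 (SE 0.08) for Lamb1. In all, 8 of 11 laminins were below 0 in VEH-CD, with a median of -0.12, and for 6 of the 11 the 95% interval lay within a change of 25% either way.

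The other genes had an unadjusted p under 0.05. Col22a1, a collagen of tissue junctions, had 85.2, 105 and 84.3 in VEH-WT and 107, 109 and 129 in VEH-CD, so that the groups met closely without overlap (log2 difference 0.33, SE 0.13, adjusted p = 0.353 by limma). Mmp15, a membrane-type MMP, had 1199, 1062 and 1179 in VEH-WT and 1019, 969 and 1098 in VEH-CD, which overlapped (-0.16, SE 0.07, adjusted p = 0.412 by limma). Timp3, the TIMP that binds to the matrix, had 3877, 3799 and 4695 in VEH-WT and 3738, 3088 and 3704 in VEH-CD (-0.23, SE 0.11, adjusted p = 0.419 by limma), and the difference was -0.13 without VEH-WT 3. Of the 83 members, 10 did not overlap between the groups, whereas 20.6% of all genes did not. Higher without overlap were 3 (9.28% of all genes), which are Mmp19, Col22a1 and Col12a1. Lower were 7 (11.4% of all genes), which are Lamc1, Timp3, Col9a3, Col6a3, Col25a1, Mmp25 and Col4a1. Col12a1 is named for this pattern alone, after its values were seen.

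How far the absence of calls goes depends on the spread. The median SE of the members was 0.19, against 0.11 over all genes. For 15 members (18.1%) the 95% interval lay inside a change of 25% either way, among them Mmp17, Timp2, Mmp24, Lamb2, Lamb1 and Col4a1, whereas this held for 48.9% of all genes. For the rest, a change of 25% in 1 direction or both was within the interval.

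The VERCUR-CD against VEH-CD comparison asks what the co-treatment alters in CD mice. No gene of the table was called (0%), and so 0 of 83 members. At an unadjusted p under 0.05 there were 4 members (4.82%, against 3.54% of all genes), of which 3 were higher and 1 lower, where 2.09% and 1.44% of all genes were. By voom 0 were called. Without overlap of the mice, 5 members were higher (3.71% of all genes) and 3 lower (4.63%), in all 8.34% of all genes. The median log2 difference was 0.02. In the same comparison all 6 striatal (median -0.89), all 5 red blood cell (-0.34) and all 5 oligodendrocyte markers (-0.11) were below 0. All 14 fibroblast (0.12), all 5 astrocyte (0.19) and all 5 microglia markers (0.09) were above 0. The part of these marker shifts in the members' differences was not tested.

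Timp3 had the smallest p. The VEH-CD values above stood against 3889, 4992 and 4258 in VERCUR-CD, all higher (log2 difference 0.32, SE 0.11, adjusted p = 0.867 by limma). Without VERCUR-CD 2 it was 0.22. In the mice of VEH-WT and VERCUR-WT, the ranges of 3799 to 4695 and 4237 to 4386 overlapped with VERCUR-CD. Timp3 lies within the bounds of Syn3 on the opposite strand.

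Col4a5 had 89.1, 75.1 and 91.0 in VEH-CD and 102, 152 and 100.1 in VERCUR-CD (0.45, SE 0.19, adjusted p = 0.867 by limma). The groups did not overlap, but 1 mouse, VERCUR-CD 2, lay well above the others, and without it the difference was 0.25. The same mouse was highest in Col19a1, a collagen of basement membrane zones found in neurons, with 204, 436 and 298 against 173, 216 and 228 in VEH-CD (0.55, and 0.27 without it). It was also highest in Col25a1, with 1263, 2354 and 1808 against 1209, 1561 and 1400.3 (0.34, and 0.13 without it). The relation of this library to GC content is given above, and its part in these differences was not tested. Mmp17 was slightly lower, with 14788, 13539.8 and 13814 in VERCUR-CD and 15122, 15451 and 15579.5 in VEH-CD. The groups did not overlap and the difference was small (-0.13, SE 0.06, adjusted p = 0.867 by limma).

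**Figure D2:**
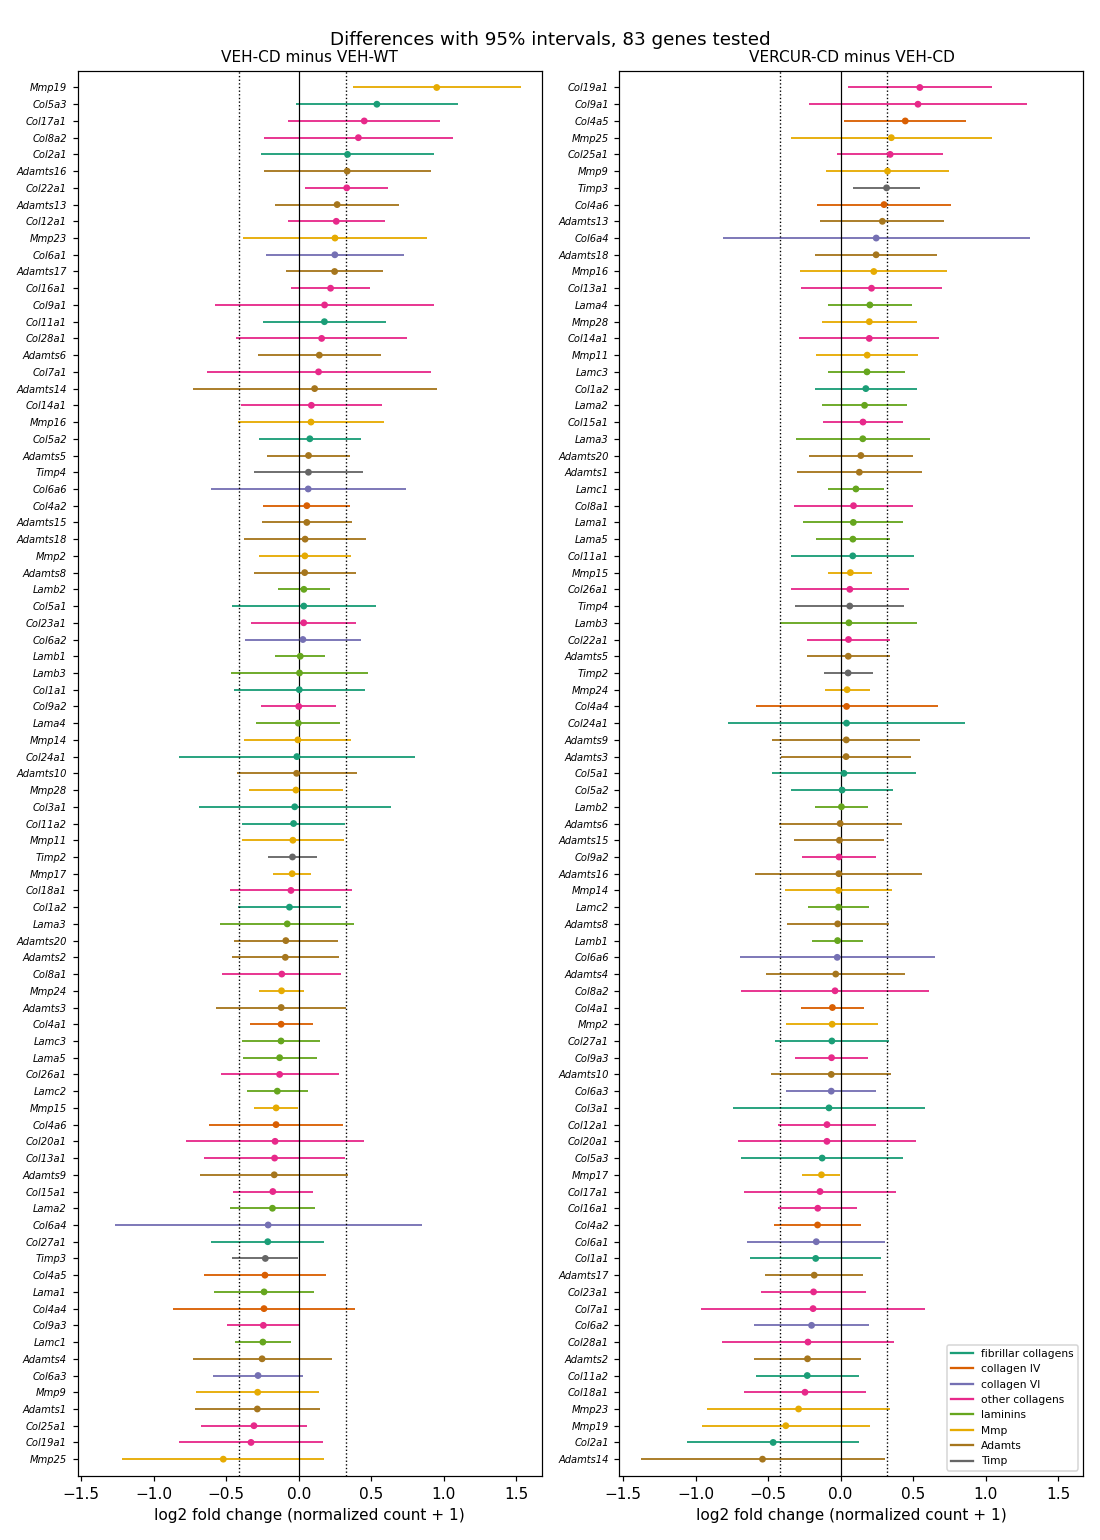
Log2 fold change of each of the 83 genes tested (points) with its 95% interval (lines), sorted, in VEH-CD minus VEH-WT (left) and VERCUR-CD minus VEH-CD (right); colors mark families and dotted lines a change of 25% up or down. Mmp19 at 0.95 is at the top on the left and Col19a1 at 0.55 on the right, and most intervals reach past a dotted line. Both panels use the same VEH-CD mice.

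Mmp2 and Mmp9, the gelatinases, and Mmp14, which activates MMP2, are often measured in brain, and were close to equal between groups or varied within them. Mmp14 had group means from 514 to 549 and Mmp2 from 95.8 to 105. Mmp9 was at 58.6 ± 10.4 in VEH-WT, 47.8 ± 6.64 in VEH-CD, 53.6 ± 10.6 in VERCUR-WT and 59.8 ± 4.28 in VERCUR-CD (SD, n = 3). The 3 VERCUR-CD mice (54.9 to 62.5) were above the VEH-CD mice (40.6 to 53.7), with a log2 difference of 0.32 (SE 0.19, adjusted p = 0.867 by limma). The intervals of Mmp2 in the comparison of VEH-CD with VEH-WT ran from -0.27 to 0.36, and those of Mmp14 from -0.38 to 0.36.

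The pathway tables of the study, drawn from these same mice, name 9 of the members under extracellular matrix organization or degradation. They are Adamts14, Col2a1, Col6a1, Col7a1, Col16a1, Col17a1, Col28a1, Mmp19 and Mmp25, and their direction here is therefore no independent evidence. The study lists all 9 as altered in VEH-CD against VEH-WT, Mmp25 lower and the others higher. It marks Adamts14, Col2a1, Col6a1, Col16a1, Col28a1 and Mmp25 as recovered after VERCUR. Its model and test differed from those used here. With the main test here, 0 of the 9 were called in any comparison. Most are expressed at low levels: all but Col6a1 and Col16a1 had fewer than 100 normalized counts in every mouse.

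Col6a1 had 1060.3, 1903 and 1074 in VEH-WT, 1395, 2004 and 1299.7 in VEH-CD, 1617, 1244 and 1278 in VERCUR-WT and 1569.6, 1177 and 1387 in VERCUR-CD. The mouse VEH-WT 2 was close to the highest VEH-CD mouse and far above the other VEH-WT mice. The log2 difference of VEH-CD and VEH-WT was 0.25 (SE 0.22, adjusted p = 0.682 by limma), and it was 0.53 without VEH-WT 2 and 0.06 without VEH-CD 2. Col16a1, a fibril-associated collagen, had 442, 572 and 392 in VEH-WT and 534, 583 and 502 in VEH-CD, overlapping through the same mouse (0.22, SE 0.13). Col17a1, a hemidesmosomal collagen, had 23.5, 41.6 and 27.8 in VEH-WT and 41.5 ± 1.57 (SD, n = 3) in VEH-CD (0.45, SE 0.24), again with VEH-WT 2 among the VEH-CD values.

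Mmp25, a membrane-type MMP of leukocytes, had 17.9, 12.7 and 21.7 in VEH-WT and 12.6, 11.5 and 10.8 in VEH-CD, all lower but with the nearest mice almost equal (-0.52, SE 0.32). Col7a1, the collagen of anchoring fibrils, had 44.8, 84.3 and 37.4 against 72.0, 66.2 and 39.5 (0.14, SE 0.36), and the groups overlapped fully. Adamts14, a procollagen N-propeptidase, had 11.2, 21.9 and 9.56 against 12.6, 16.8 and 14.4 (0.11, SE 0.39), and Col2a1, the collagen of cartilage, 40.4, 37.0 and 24.3 against 49.1, 46.8 and 32.3 (0.34, SE 0.27). Col28a1 differed by 0.16 (SE 0.27). Single mice moved these values far. Col28a1 was at 0.02 without VEH-CD 3 and 0.41 without VEH-CD 1. Col2a1 was at 0.12 without VEH-WT 3 and 0.52 without VEH-CD 3. When the third or the second VEH-WT mouse was left out, respectively, Col16a1 was at 0.10 and 0.37, Col7a1 at -0.10 and 0.48, and Adamts14 at -0.11 and 0.45. Col17a1 was at 0.28 without VEH-WT 1 and 0.68 without VEH-WT 2.

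VERCUR-CD minus VEH-CD, which shares the VEH-CD mice with the comparison before, gave -0.54 for Adamts14, -0.47 for Col2a1, -0.38 for Mmp19, -0.23 for Col28a1, -0.19 for Col7a1, -0.17 for Col6a1, -0.16 for Col16a1, -0.14 for Col17a1 and 0.35 for Mmp25. None passed the test (adjusted p = 0.867 to 0.918 by limma). The methods of the study name a correction at a CV of 20% and do not say how it was done. As 1 reading of it, when a group had a CV of at least 20% and its value farthest from the median was left out here, which lowers the spread by construction, 4 members were called in VEH-CD against VEH-WT: Mmp19, Col7a1 and Col17a1 higher and Mmp25 lower. For Col7a1, Col17a1 and Mmp25 the value dropped in VEH-WT was that of VEH-WT 2. Col7a1, with a CV of 29.2% in VEH-CD, also lost its lowest VEH-CD value, that of VEH-CD 3 (39.5). Its log2 difference was then 0.74, a larger change than the fold that the study prints for it. For Col7a1 the reading used here is thus not that of the study. Mmp19 lost no value in these groups and kept its difference of 0.95, and its adjusted p was then 0.00298, by limma, and over all alternatives it ranged from 0.00298 to 0.576.

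**Figure D3:**
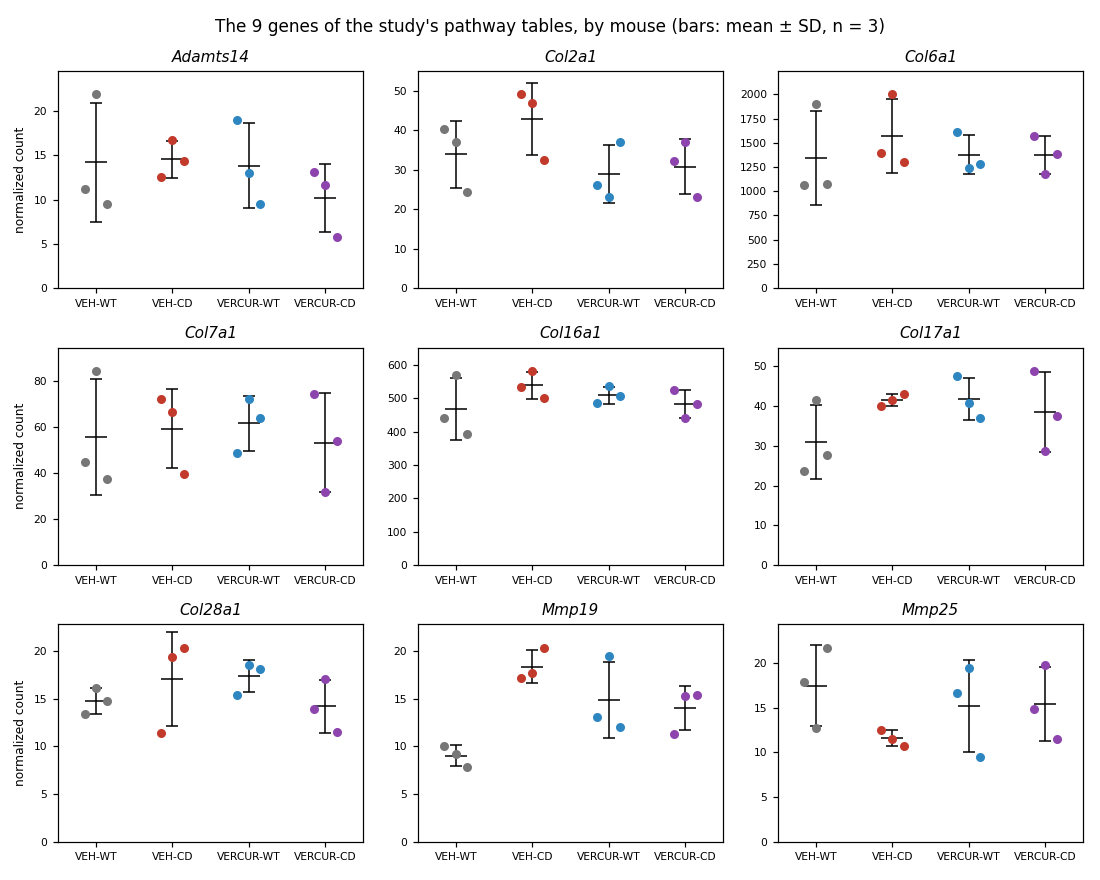
Normalized counts (linear axis from 0) of the 9 members that the pathway tables of the study name, by mouse (points) and group, with mean ± SD (n = 3). In Mmp19 the 3 VEH-CD mice (17.1 to 20.4) stand above the 3 VEH-WT mice (7.82 to 10.1); in Col6a1, Col7a1 and Col17a1 the second VEH-WT mouse lies within or above the VEH-CD values.

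Over both treatments, CD against WT used all 12 mice, with a median SE of the members of 0.13. No member was called, 0 of 83, against 0.321% of all genes, and 5 had an unadjusted p under 0.05 (6.02%, against 9.64% of all genes), of which 2 were higher and 3 lower, where 4.78% and 4.86% of all genes were. The smallest p was that of Col9a3, a chain of collagen IX, at chr2:180597790-180622189. It had 359.8, 360.2 and 395 in VEH-WT and 342, 381 and 400.2 in VERCUR-WT, and 319, 282 and 343 in VEH-CD and 352, 283 and 270.4 in VERCUR-CD. All but 2 CD mice were below all WT mice, and the log2 difference was -0.28 (SE 0.08, adjusted p = 0.267 by limma), between -0.34 and -0.24 when 1 mouse was left out. For its partner chain Col9a2 the same difference was -0.07 (SE 0.08). Tcfl5 overlaps Col9a3 on the opposite strand.

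Col6a3, a chain of collagen VI, was at 86.8 to 93.4 in VEH-CD and 78.9 to 91.7 in VERCUR-CD, against 102 to 121 in VEH-WT and 86.1 to 116 in VERCUR-WT (-0.22, SE 0.10, adjusted p = 0.517 by limma). Col22a1 (0.24, SE 0.09), Mmp15 (-0.12, SE 0.05) and Mmp19 (0.44, SE 0.19) made up the rest of the 5. The mice of both genotypes overlapped in each of the 83 members, where 1.05% of all genes did not.

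Within the deleted interval of chromosome 5 there was no member. The 3 members of that chromosome are Col26a1, 1.39 Mb beyond its end, Mmp17 and Adamts3. Col26a1, which is named for its place alone after its values were seen, had 144 ± 33.7 in VEH-WT and 129 ± 6.35 in VEH-CD (SD, n = 3), a log2 difference of -0.13 (SE 0.19). Eln, the matrix gene that the deletion removes from 1 chromosome, had 215, 240.2 and 205 in VEH-WT and 118, 82.1 and 157 in VEH-CD. In the treated mice it had 269, 390 and 199 in VERCUR-WT and 91.6, 132 and 106 in VERCUR-CD. All CD mice were below all WT mice, and Eln was called lower in CD against WT over both treatments (log2 difference -1.13, SE 0.18, adjusted p = 0.0135 by limma). Eln was not called in VEH-CD against VEH-WT (-0.93, adjusted p of at least 0.19 by limma). Nor was it called in VERCUR-CD against VEH-WT (-1.01, adjusted p of at least 0.27 by limma). In these comparisons a gene that lost 1 copy was thus missed by the test that called 0 of 83 members.

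Eln was also the only called gene among 65 genes that act with the members, in any of the 8 comparisons. These were 12 integrins and other receptors, 20 collagen-modifying enzymes and chaperones, 6 linkers and proteoglycans of the basement membrane, 9 lecticans, link proteins and tenascins, 12 elastic fiber genes and 6 regulators of MMP activity. In VEH-CD against VEH-WT, 20 of the 65 were above 0, with a median of -0.12, and 10 had an unadjusted p under 0.05 (3 higher, 7 lower), or 15.4% against 11.8% of all genes.

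VERCUR-CD against VEH-WT compares treated CD mice with the reference group. No member was called, 0 of 83, where 0.199% of all genes were, and 5 had an unadjusted p under 0.05 (6.02% against 8.68%). Mmp17 was lower, at 13539.8 to 14788 against 15062 to 16367 in VEH-WT, without overlap (-0.18, SE 0.06, adjusted p = 0.443 by limma). Col22a1 was at 114 to 122 against 84.3 to 105 (0.38, SE 0.13, adjusted p = 0.452 by limma). The others were Adamts13 (0.55, SE 0.20), Col9a3 (-0.31, SE 0.12) and Col6a3 (-0.35, SE 0.14). Here all 6 striatal (median -0.76), all 5 oligodendrocyte (-0.29) and all 3 interneuron markers (-0.17) were below 0. All 5 astrocyte (0.14), all 5 red blood cell (0.08) and 4 of 5 microglia markers (0.20) were above 0. The part of these shifts in the members' differences was not tested.

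The effect of the co-treatment in wild-type mice, VERCUR-WT against VEH-WT, gave 0 members called of 83, as it did for all genes (0%), with 4 members (4.82%) and 5.22% of all genes at an unadjusted p under 0.05. Adamts13, the protease that cleaves von Willebrand factor, had 44.8, 57.7 and 53.9 in VEH-WT and 77.2, 83.4 and 72.5 in VERCUR-WT, without overlap (0.57, SE 0.20, adjusted p = 0.944 by limma). In CD mice it had 59.4, 50.3 and 81.5 with vehicle and 79.4, 63.0 and 89.5 with VERCUR, which overlapped. Lamb1, a laminin beta chain, was higher in VERCUR-WT, with 725, 721 and 670.1 against 606, 590.0 and 611 (0.23, SE 0.08, adjusted p = 0.944 by limma). In that comparison 13 of 14 fibroblast markers were above 0 (median 0.20), and all 6 striatal (-0.64) and 5 oligodendrocyte markers (-0.50) were below 0, and their part was not tested. VERCUR-CD mice were lower in Lamb1, at 645, 587 and 564, and VERCUR-CD minus VERCUR-WT was -0.24 (SE 0.08, adjusted p = 1.00 by limma).

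That last comparison, genotype under treatment, called 0 of 83 members against 0.146% of all genes, with 3 members (3.61%) and 4.10% of all genes at an unadjusted p under 0.05. VERCUR against VEH over both genotypes called no gene (0%). It had 5 members at an unadjusted p under 0.05, or 6.02% against 2.96% of all genes, and all 5 were higher with VERCUR, where 1.45% of all genes were. These were Adamts13 (0.43, SE 0.14), Timp3 (0.20, SE 0.07), Adamts18 (0.33, SE 0.14), Col4a5 (0.32, SE 0.14) and Col9a1 (0.54, SE 0.25, at 9.24 to 26.1 counts). Their adjusted p values by limma were all 1.00. In this comparison all 14 fibroblast (median 0.16), 5 astrocyte (0.13) and 7 endothelial markers (0.07) were above 0, and all 6 striatal (-0.76) and 5 oligodendrocyte markers (-0.30) below 0. The part of these markers in the members' differences was not tested. The interaction of genotype and treatment called no gene (0%), and its smallest member p was that of Mmp19 (-1.01, SE 0.38, adjusted p = 0.816 by limma), followed by Lamc1 (0.30, SE 0.13) and Lamb1 (-0.25, SE 0.11). For the interaction 3 members (3.61%) and 6.05% of all genes had an unadjusted p under 0.05.

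**Figure D4:**
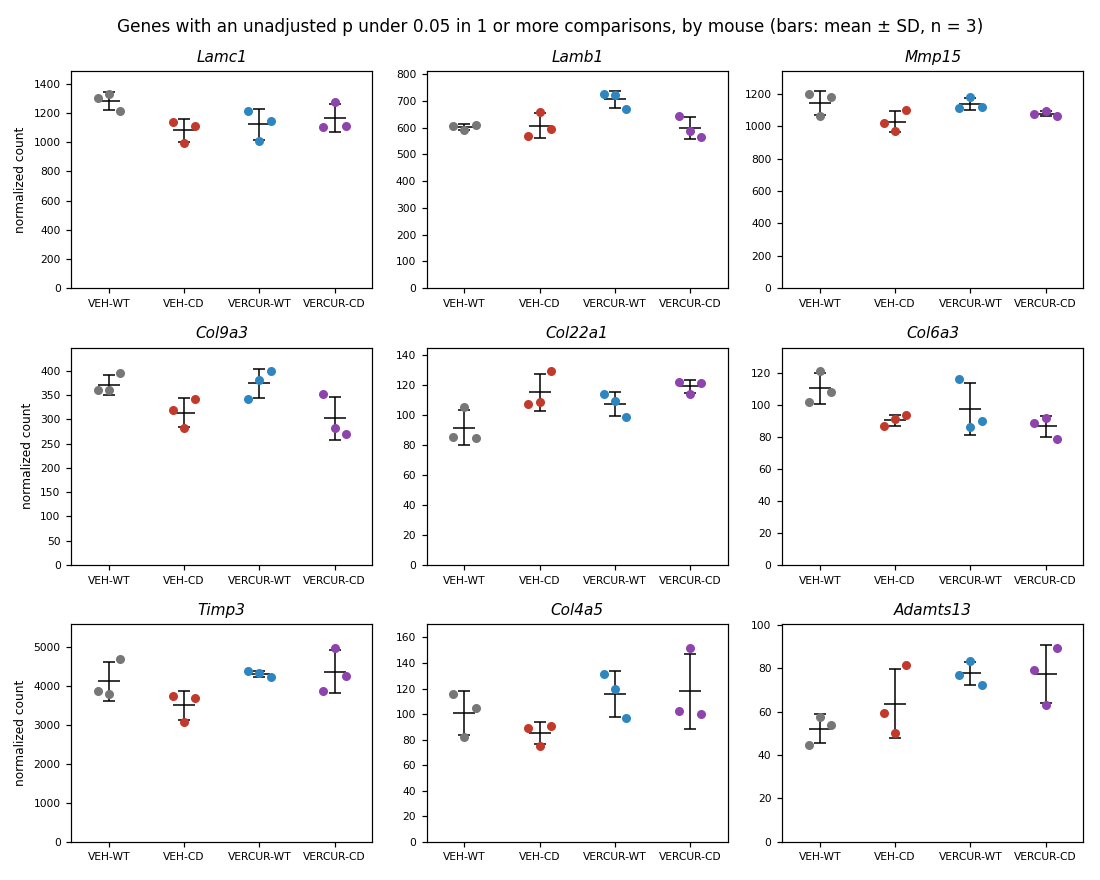
Normalized counts (linear axis from 0) of 9 members with an unadjusted p under 0.05 in 1 or more comparisons, by mouse (points) and group, with mean ± SD (n = 3). The VEH-WT mice of Lamc1 (1217 to 1330.1) lie above the VEH-CD mice (992 to 1138), and the VERCUR-WT mice of Lamb1 (670.1 to 725) above all others; no difference shown passed the adjusted test.

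The members were also set against markers of cell types across the 12 mice. Each of the 85 members was correlated, on the log2 scale, with the mean log2 deviation of 12 lists of markers, 1020 relations in all, with permutation p values from 100000 resamples adjusted over these relations. For Adamts4 (chr1:171250421-171260637) and the oligodendrocyte markers, a list of 5, was 0.94 (permutation p = 2e-05, adjusted 0.0204) and rho 0.88 (permutation p = 0.00035, adjusted 0.0816) over 12 mice. Within groups r was 0.94, and without VEH-WT 3 and VERCUR-WT 1, the mice farthest from the median, it was 0.83. Adamts4 had 519 normalized counts in VERCUR-WT 1 and 1268 in VEH-WT 3, the mice with the lowest and highest marker sums (67424 and 197295). The difference of Adamts4 between VERCUR-WT and VEH-WT, -0.52 (SE 0.22, adjusted p = 0.944 by limma), was -0.28 without VERCUR-WT 1 and -0.81 without VERCUR-WT 3. The marker sums were 125020 to 197295 in VEH-WT and 67424 to 177355 in VERCUR-WT, and their part in this difference was not tested.

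No relation passed on both measures. Adamts4 passed on r alone, and Timp2 with cortical glutamatergic neurons on rho alone, with r = 0.87 (permutation p = 0.0002, adjusted 0.102) and rho = 0.92 (permutation p = 4e-05, adjusted 0.0408). Within groups r was 0.90, and 0.84 without VERCUR-WT 3 and VERCUR-CD 2. The relations that follow did not pass on either measure. Timp3 and astrocytes had r = 0.80 (permutation p = 0.00194, adjusted 0.223) and rho = 0.64 (permutation p = 0.0285, adjusted 0.523), and r was 0.74 without VEH-WT 2 and VEH-CD 2. The summed astrocyte markers were 39674 to 46341 in VEH-CD and 46132 to 55593 in VERCUR-CD, the groups between which Timp3 had its smallest p, and their part in that difference was not tested.

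The chains of collagen I were compared with the fibroblast markers, a list of 14 that holds no member. For Col1a2, r was 0.81 (permutation p = 0.00089, adjusted 0.165) and rho 0.78 (permutation p = 0.0039, adjusted 0.252). For Col1a1, r was 0.68 (permutation p = 0.0166, adjusted 0.325) and rho 0.66 (permutation p = 0.0216, adjusted 0.465). Without VEH-CD 1 and VERCUR-WT 1 these were 0.65 and 0.55. With the endothelial markers, r was 0.01 for Col4a1 and -0.15 for Col4a2 (permutation p = 0.982 and 0.651). Without VEH-WT 2 and VEH-CD 2, the mice with the lowest endothelial sums, r was 0.71 and 0.67. With the astrocyte markers, r was -0.59 for Col4a1 and -0.77 for Col4a2 (permutation p = 0.0466 and 0.00385, adjusted 0.444 and 0.228). Without the same mice these were -0.46 and -0.64. The fibroblast sum ranged from 5849 to 9896 and overlapped between all groups. Choroid plexus markers were near the floor, with sums of 103 to 169, and of the 6 listed, Kcne2 and Otx2 were not analysed here.

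**Figure D5:**
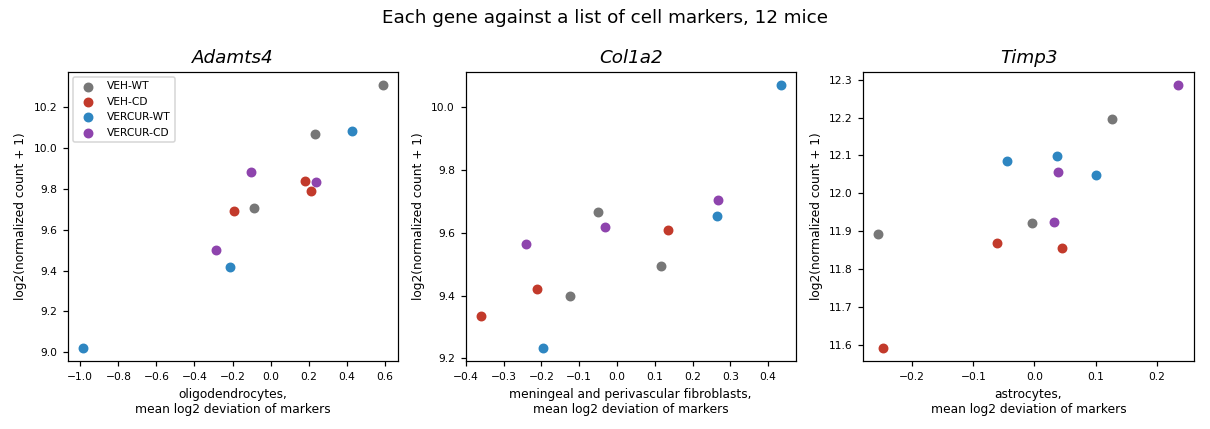
Log2(normalized count + 1) of Adamts4, Col1a2 and Timp3 against the mean log2 deviation of markers of oligodendrocytes, meningeal and perivascular fibroblasts, and astrocytes; each point is 1 of 12 mice, colored by group. Adamts4 rises along the oligodendrocyte markers from VERCUR-WT 1 at the lower left to VEH-WT 3 at the upper right (r = 0.94).

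Chains that join in 1 trimer were also compared with each other over the 12 mice, as 15 pairs with permutation p values adjusted over the pairs. For 11 of them r was above 0, and 3 passed on r, of which Col4a5 with Col4a6 also passed on rho. The shares among other pairs of genes were not computed, so these counts say nothing particular of trimer partners. Col4a1 and Col4a2, which share the start region shown above, had r = 0.78 (permutation p = 0.00264, adjusted 0.0231) and rho = 0.57 (permutation p = 0.0564, adjusted 0.169), with 0.88 within groups and 0.64 without VEH-WT 2 and VERCUR-WT 3. Col4a5 and Col4a6, the head-to-head pair of chromosome X, had r = 0.75 (permutation p = 0.00462, adjusted 0.0231) and rho = 0.81 (permutation p = 0.00239, adjusted 0.0359), and 0.78 without VEH-CD 2 and VERCUR-CD 2. Col6a1 and Col6a2, neighbors on chromosome 10, had r = 0.78 (permutation p = 0.00347, adjusted 0.0231) and rho = 0.72 (permutation p = 0.0111, adjusted 0.0772), and 0.61 without VEH-WT 2 and VEH-CD 2.

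The genes of collagen I lie on different chromosomes, 11 and 6, and had r = 0.66 (permutation p = 0.0151, adjusted 0.0566) and rho = 0.69 (permutation p = 0.0154, adjusted 0.0772), with 0.80 without VERCUR-WT 2 and VERCUR-CD 3. The pairs that follow did not pass. Lamb1 and Lamc1 had r = -0.38 (permutation p = 0.225, adjusted 0.375) and rho = -0.27 (permutation p = 0.402, adjusted 0.686). Col6a1 and Col6a3 had r = 0.19 (permutation p = 0.562, adjusted 0.744) and rho = 0.03 (permutation p = 0.921, adjusted 0.921). Reads in the overlap of Col4a1 and Col4a2 cannot be told apart without strand, but it spans 22 bases of exons of 7464 and 6619.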

How the data were processed

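Cortical RNA of 12 mice was sequenced (Illumina, paired ends), and per the study's methods alignment was by STAR 2.5.3a to the GRCm38 build. The authors deposited reads per gene divided by 1 factor per mouse (other unit: normalized count), and no program or annotation for counting is given in the sources used here. These values are not raw counts, and every value was a whole multiple of 1 step per mouse, from which reads were recovered. Members were chosen by symbol, and the members, the lists and the tests were chosen with earlier results of these data known.

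limma 3.58.1 in R 4.3.3 was fitted with an intensity trend to log2(normalized count + 1) of all 12 mice and 17111 genes with a mean of at least 10 (of 17202). Contrasts of the 4 group means were two-sided, and a call needed an adjusted p under 0.05 with a change of more than 25% either way (the interaction, the adjusted p alone). Genes named are those called, those in the pathway tables of the study, the 3 highest per length in each family, the 5 smallest p values of each comparison, chains of 1 trimer, the TIMPs, Mmp2, Mmp9 and Mmp14. Positions are those of GENCODE M21 and sequences those of RefSeq (GRCm38.p6). The fit was tested on simulated data. Alternatives were other pseudocounts, filters, scalings, weights, a replicate block, removal of values by CV, and each mouse left out. limma voom was added after the data were seen. A pair of deposited tables of genes picked by the study, relative to VEH-WT, was not used. A read was worth 0.862 to 1.20 normalized counts, so counting error, relative to the level, grows as counts fall. It is not small in the 14 members with a mean under 50, and its part in their spread was not tested. Single genes of some marker lists and some overlapping genes are not reported here.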

Additional observations from a re-analysis of the deposited data

Results flagged for a closer look

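Mmp19 was picked by a rule run over all 85 members. The rule asks for opposite moves without overlap, or an interaction with an adjusted p under 0.05. All 3 VERCUR-WT mice (12.1 to 19.4 normalized counts) were above all VEH-WT mice (7.82 to 10.1). All 3 VERCUR-CD mice (11.3 to 15.4) were below all VEH-CD mice (17.1 to 20.4). Without overlap in either direction were 9.72% of all genes in the first comparison and 8.34% in the second. The share of all genes that meet the rule was not computed. The difference itself was tested as the interaction, with a log2 value of -1.01 (SE 0.38), and did not pass (adjusted p = 0.816 by limma, and 0.0953 to 1.00 over the alternatives).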

How the results depend on the processing

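The count of members called, 0 of 83 in each of 8 comparisons, was also 0 under 155 of 166 alternatives, among them other pseudocounts and filters, both scalings, no trend, only the groups compared, voom, the adjusted p alone and every mouse left out (0 to 0 in each comparison). With sample quality weights (0.225 to 24.4, from an estimation that did not converge), there was 1 in VEH-CD against VEH-WT (Mmp19), 7 in VERCUR-CD against VEH-CD, 8 in VERCUR-CD against VEH-WT and 1 in VERCUR-CD against VERCUR-WT (Col9a3). Removing 11520 values far from the median at a CV of 20% or more, which by construction lowers the spread, gave 4 in VEH-CD against VEH-WT, 2 in VERCUR-CD against VEH-WT (Adamts13 and Col11a1), 4 in VERCUR-WT against VEH-WT (Col17a1, Adamts4, Adamts13 and Col6a4), 1 in VERCUR-CD against VERCUR-WT (Col3a1), 4 for genotype over both treatments (Col11a1, Col24a1, Mmp19 and Mmp25), 6 for treatment over both genotypes and 2 for the interaction (Col17a1 and Adamts4). The cause of the calls under the weights was not tested. Col3a1, Col6a4 and Col24a1 are named here after their values were seen.

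Of 929 values of single genes under the alternatives, 906 kept their direction and side of the threshold, 19 passed it under these same 2 settings, and 4 changed sign. Adamts14 in VEH-CD against VEH-WT was -0.01 without VEH-WT 1 and -0.11 without VEH-WT 3, with a range of -0.11 to 0.45 over the mice left out. Col7a1 was -0.10 without VEH-WT 3 and -0.03 without VEH-CD 1, with a range of -0.10 to 0.48. The highest of both was without VEH-WT 2, and the cause was not tested. Mice of equal replicate number correlated at r from -0.347 to 0.267 in 18 pairs, 4 of them over 0.1. The median r of the other pairs between groups was -0.01. Whether some mice of equal number share a batch was not tested. With the number as a block 0 members were called in each comparison, and the calls over all genes went from 44 to 40 in VEH-CD against VEH-WT. edgeR and DESeq2, planned on recovered reads, were not run. The spread between 3 mice a group limits what these tests could show.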
